A study of Mus musculus with 2 samples.

Results

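Nascent transcription of 10 genes of antigen presentation was examined in mouse bone marrow-derived macrophages (BMDMs) with and without interleukin-4 (IL-4). The genes were the costimulatory receptor and ligand genes Cd40, Cd80, Cd86 and Cd274, and the MHC class II genes Ciita, Cd74, H2-Aa, H2-Ab1, H2-Eb1 and H2-DMa. They were chosen by name with earlier results of these data known, and all 10 are reported whatever their values. Comparisons of the set with all genes are therefore descriptive. Of the 10, 9 were among the 11054 genes named in the transcript lists of the 2 libraries. BMDMs are macrophages grown from marrow progenitors, here from wild-type C57BL/6 mice aged 8 to 12 weeks, cultured for 6 days with L929 supernatant, a source of the macrophage growth factor M-CSF. The control library came from cells without IL-4 and the other library from cells given 20 ng/ml IL-4 for 1 hr. In both arms, run-on reactions of about 10×10⁶ nuclei were made in duplicate and pooled, so each condition is 1 library (n = 1), no difference below has a replicate check, and no p-value is given.

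T cells recognise peptides held by MHC class II molecules, and they respond fully only when the presenting cell also supplies costimulation. CD80 and CD86 deliver that second signal through CD28, CD40 receives the return signal of the T cell through CD40 ligand, and PD-L1, the product of Cd274, restrains the T cell. The class II chains are assembled on the invariant chain CD74, loaded with peptide with the help of H2-DM, and switched on as a set by the transactivator CIITA. IL-4 signals through STAT6 and is best known in B cells for raising class II.

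Global run-on sequencing (GRO-seq) lets engaged polymerases extend in isolated nuclei with a bromine-labelled nucleotide, and so reads RNA in the act of being made. Each library was available as a list of called transcripts, which are stretches of strand-specific nascent signal, each with a position, an annotation, the name of the nearest gene and a score printed to 1 decimal. The control list held 43122 transcripts covering 10.8 Mb and the IL-4 list 51365 transcripts covering 18.5 Mb, with median lengths of 227 and 312 bp and median scores of 0.3 and 0.2. The depth of either library is unknown. A gene's value was the highest score among the transcripts bearing its name, and its log2 ratio between the libraries (IL-4 to control) was centred on the median of the 8879 genes with a value in both libraries, which lay at -0.38 before centring. The range in parentheses after a ratio is what the rounding of the scores allows and is not a replicate error. Scores were compared within a gene, except that marker scores were also summed over each list, without centring. In bulk nuclei, a change in the number of cells that transcribe a gene and a change in transcription per cell cannot be told apart.

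The 10 genes carried 20 transcripts in the control library and 76 in the IL-4 library. Of the 7 genes with a value in both, Cd40, Cd274, Cd86 and Cd74 were at least 2-fold higher after IL-4, H2-Eb1 was at least 2-fold lower, and H2-Ab1 and H2-DMa moved by less. Over all genes with a ratio, 8.06% were at least 2-fold higher and 8.62% at least 2-fold lower. The median centred log2 ratio of the 7 genes was 1.06, against 0 for all genes, whose quartiles were -0.51 and 0.38. Costimulatory and class II genes differed in these counts. All 3 costimulatory genes with a ratio were higher, with a median of 1.96, whereas 1 of 4 class II genes was higher and 1 was lower, with a median of 0.38. Ciita and H2-Aa were named only in the IL-4 library, as were 11.1% of all named genes. Cd80 was named in neither.

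**Figure D1:**
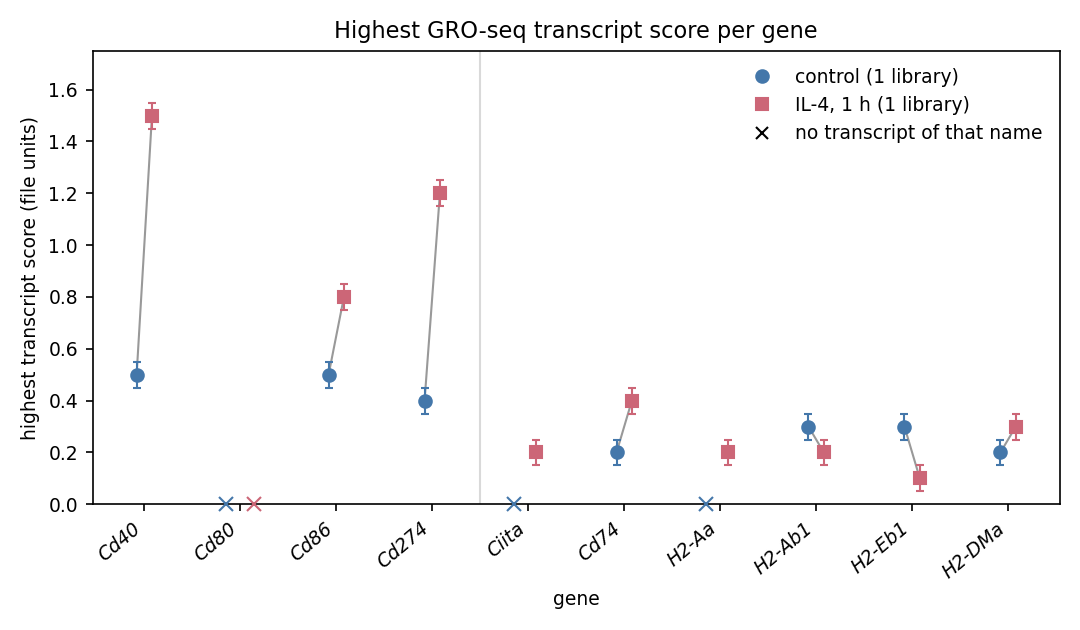
Highest transcript score (y axis, in the units of the files) of each of the 10 genes in the control library (circles) and the IL-4 library (squares), with bars for the 0.05 rounding on each side and crosses where no transcript bore the name. Cd40 went from 0.5 to 1.5 and Cd274 from 0.4 to 1.2, while every class II score lay at or below 0.4.

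**Figure D2:**
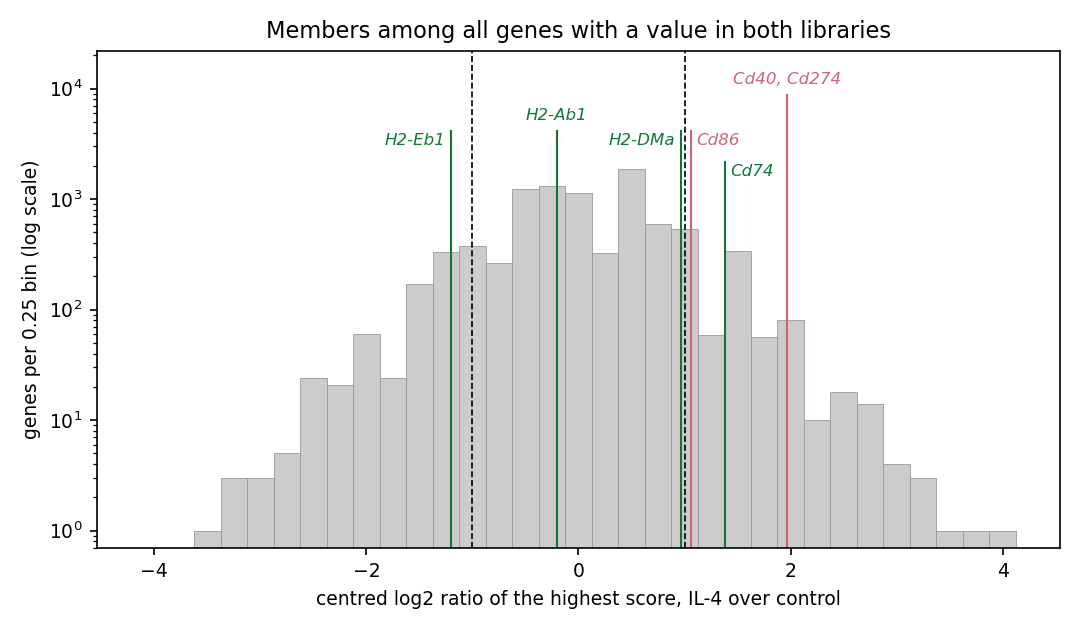
Distribution of the centred log2 ratio over the 8879 genes with a value in both libraries (grey bars, log-scaled count per bin), with lines at the 3 costimulatory genes (red) and the 4 class II genes (green) and dashed lines at 2-fold. Cd40 and Cd274 share the position 1.96 in the upper tail, and H2-Eb1 is the gene of the set beyond the lower line.

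Cd40 (ENSMUSG00000017652.16, chr2:165055627-165072948, plus strand, mm10) encodes the receptor through which T cells activate macrophages. Its highest score was 0.5 in the control and 1.5 after IL-4. The IL-4 score was 3.0 times the control score before centring, a centred log2 ratio of 1.96 (1.78 to 2.16), and 63 of the 8879 genes had a larger ratio. Both scores came from the same place in intron 5 of 7, where the control transcript spanned chr2:165064061-165064124 (64 bp) and the IL-4 transcript chr2:165063908-165064191 (284 bp). Among the 904 genes with a control value of 0.5, the median IL-4 value was 0.4, and 8 genes, Cd40 included, reached 1.5 or more.

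The signal over Cd40 also extended. Control transcripts numbered 3, all of them intronic, and the IL-4 library held 17, so that the covered part of the gene on its own strand went from 342 bp (1.97% of the 17322 bp span) to 7927 bp (45.8%). That is a 23.2-fold difference in covered length, with 25 of 8158 genes showing a larger one, beside a median of 1.37 over these genes and 7.91% of them at 4-fold or more. Up to the midpoint of the gene the control library held 3 transcripts with scores summing to 0.9 and the IL-4 library 7 summing to 3.6. Beyond the midpoint there were none in the control and 10 after IL-4, with scores summing to 1.9. The IL-4 transcripts thus ran from one end of the gene to the other. The transcript closest to the start site, chr2:165055659-165056402 with a score of 0.8, had no control counterpart. The farthest transcript centres lay 8456 bp from the start site in the control and 17033 bp after IL-4.

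Cd274 (ENSMUSG00000016496.7, chr19:29367455-29388095, plus strand) encodes PD-L1, the ligand that inhibits T cells through the receptor PD-1. The highest score was 0.4 in the control and 1.2 after IL-4, giving the same centred log2 ratio as Cd40, 1.96 (1.73 to 2.22). Of the 1116 genes with a control value of 0.4, 5 reached 1.2 or more, Cd274 included. The IL-4 maximum lay in intron 1 at chr19:29369051-29369336, over a T-rich low-complexity stretch, and the control library had a transcript of score 0.4 at the same place. A control transcript of equal score lay upstream of the gene on the opposite strand. A transcript over exon 3 of 7 went from 0.3 to 0.8 and another in intron 5 from 0.1 to 0.3, so all 3 of the sites called inside the gene in both libraries scored higher after IL-4.

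Transcripts on the own strand of Cd274 numbered 3 in the control and 18 after IL-4, and the covered length went from 564 bp (2.73% of the 20641 bp span) to 9289 bp (45.0%). This 16.5-fold difference was exceeded by 40 of 8158 genes. Scores up to the gene's midpoint summed to 0.7 in the control and 3.6 after IL-4, and those beyond it to 0.1 and 1.6. After IL-4 the calls included a 1253 bp transcript of score 0.4 in the 3′ UTR (chr19:29386688-29387940) and a transcript of score 0.1 past the annotated end (chr19:29388237-29389014), neither of which had a control counterpart. At the promoter, the IL-4 library held a plus-strand transcript from chr19:29367466-29368017 with a score of 0.3 and a minus-strand transcript of score 0.1 at chr19:29366890-29367273, and the control library held none at either place. The upstream minus-strand transcript described above was the only matched Cd274 transcript to score lower after IL-4, at 0.4 and 0.3.

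The Cd274 promoter window is shown because transcripts called only after IL-4 lay on both strands across it. It is the RefSeq sequence of GRCm38.p6 at chr19:29367188-29367487, plus strand, 250 bases before to 50 after the start, with 52.7% GC and 15 CpG dinucleotides, and the 22 capitals are the bases inside the IL-4 plus-strand transcript.
Cd274 promoter: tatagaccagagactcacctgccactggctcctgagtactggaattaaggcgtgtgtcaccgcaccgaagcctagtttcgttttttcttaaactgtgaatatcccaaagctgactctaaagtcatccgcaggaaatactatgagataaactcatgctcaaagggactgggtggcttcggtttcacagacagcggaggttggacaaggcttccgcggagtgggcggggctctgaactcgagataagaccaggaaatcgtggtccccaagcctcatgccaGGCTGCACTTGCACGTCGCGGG

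**Figure D3:**
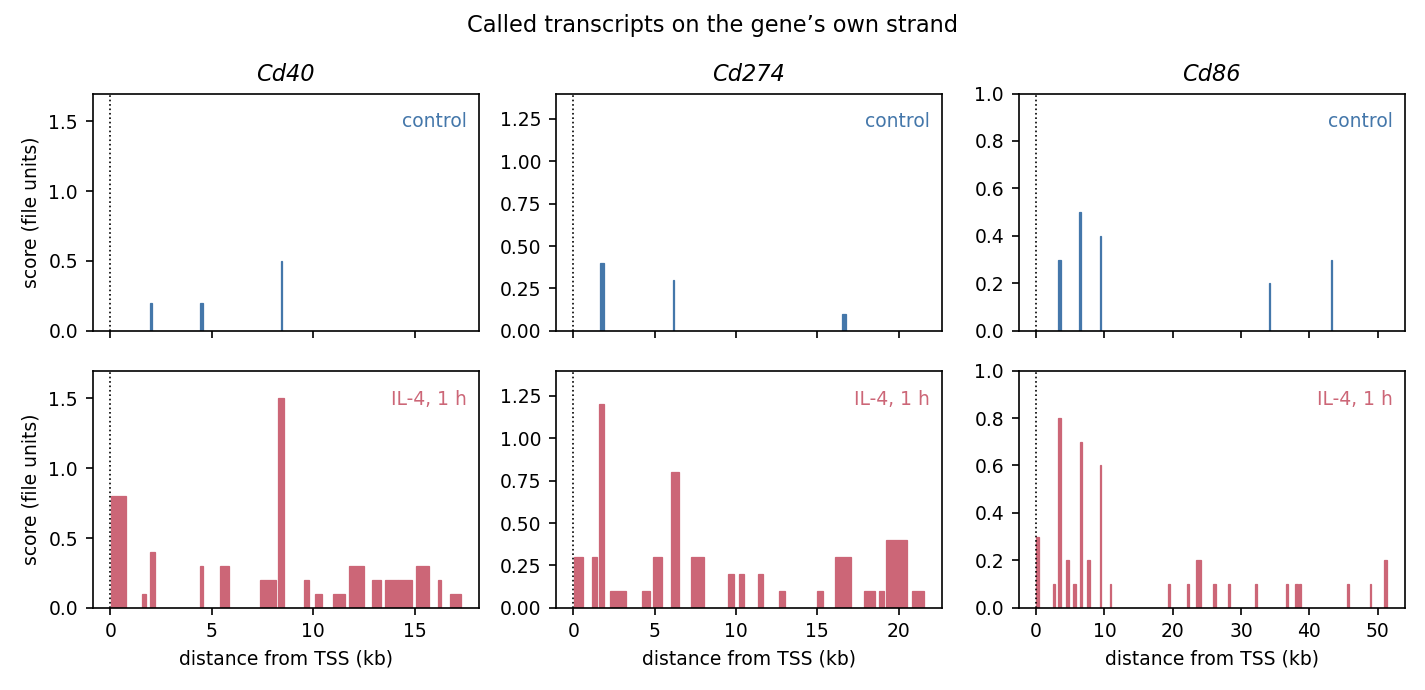
Called transcripts on the gene's own strand over Cd40, Cd274 and Cd86, with distance from the start site in kb on the x axis, transcript score in file units on the y axis, bars as wide as the transcripts plus a thin outline, and control above IL-4 for each gene. Cd40 has 3 control and 17 IL-4 transcripts, Cd274 has 3 and 18, and Cd86 has 5 and 21, with the IL-4 calls spread along the gene bodies.

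Cd86 (ENSMUSG00000022901.13, chr16:36603869-36666081, minus strand) encodes a CD28 ligand present on resting macrophages. The highest score was 0.5 in the control and 0.8 after IL-4. Cd86 was among the 46 genes that reached 0.8 or more, out of 904 with a control value of 0.5. The centred log2 ratio was 1.06 with a range (0.83 to 1.30) that straddles the 2-fold line. The ratio before centring was 1.6-fold, or 0.68 on the log2 scale, and without transcripts annotated to repeats the centred ratio was 0.32, from scores of 0.3 and 0.3. The 3 sites called in both libraries, all in intron 1, went from 0.3 to 0.8, from 0.5 to 0.7 and from 0.4 to 0.6. Transcripts went from 5 to 21, of which 4 and 10 were annotated to repeats, and 13 of the 21 scored 0.1.

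The covered length of Cd86 on its own strand went from 1408 bp (2.26% of the 62213 bp span) to 8409 bp (13.5%), a 5.97-fold difference that 295 of 8158 genes exceeded. These lengths include transcripts inside the gene that bear the name of the neighbouring Casr, 1 in the control with a score of 0.2 and 3 after IL-4 with scores of 0.2 to 0.5. Among transcripts named Cd86, the extra calls lay mostly toward the start site. The transcripts named Casr all lay beyond the midpoint and are left out of the counts that follow. Up to the midpoint the number went from 3 to 14 and the summed score from 1.2 to 3.7, and beyond it the number went from 2 to 7 and the summed score from 0.5 to 0.8. The nearest transcript centre lay 3354 bp from the start site in the control and 229 bp after IL-4.

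Cd80 (ENSMUSG00000075122.5, chr16:38455561-38496335, plus strand), the gene of the other CD28 ligand, had no transcript under its name in either library, and none overlapped it on its own strand. No level or ratio can be given, and because only called segments with a score are listed, a low level of transcription would not be seen.

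Ciita (ENSMUSG00000022504.10, chr16:10480059-10528418, plus strand), the class II transactivator, had no transcript in the control and 2 after IL-4, both in intron 1 of 18. The first, chr16:10481704-10482014, scored 0.2 and lay on a CA repeat, and the second, chr16:10496800-10497175, scored 0.1 and lay on a SINE of the B4 family. Together they covered 687 bp, or 1.42% of the gene, so the Ciita signal rested on repeat-annotated segments alone.

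Cd74 (ENSMUSG00000024610.15, chr18:60803848-60812652, plus strand) encodes the invariant chain. Its highest score was 0.2 in the control and 0.4 after IL-4, which gave a centred log2 ratio of 1.38 (0.86 to 1.96). Each library held 3 transcripts, all in intron 1 of 8, and the 2 sites called in both libraries each went from 0.2 to 0.4. Such a step was common at this level, since 158 of the 1266 genes with a control value of 0.2 reached 0.4 or more. Further transcripts inside the gene on the same strand bore the name Mir5107, 3 in the control with scores of 0.2 to 0.5 and 6 after IL-4 with scores of 0.2 to 0.3. With these included the values were 0.5 and 0.4 and the centred log2 ratio was 0.04, so the higher value of Cd74 held for the first intron and not for the gene taken as a whole. The covered length went from 2314 bp (26.3% of the span) to 4635 bp (52.6%), a 2.0-fold difference.

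The chain genes did not move as a set. H2-Aa (ENSMUSG00000036594.15, chr17:34282744-34287823, minus strand) encodes the alpha chain of I-A and had no transcript in the control and 3 after IL-4. These scored 0.2 over exon 3 of 5 (chr17:34283567-34283727), 0.2 over exon 2 (chr17:34284073-34284504) and 0.1 in intron 1 (chr17:34287385-34287715), and none was annotated to a repeat. They covered 924 bp, or 18.2% of the gene, and the nearest transcript centre lay 221 bp from the start site.

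H2-Ab1 (ENSMUSG00000073421.6, chr17:34257689-34269419, plus strand), which encodes the beta chain that pairs with the H2-Aa product, scored 0.3 in the control and 0.2 after IL-4. The centred log2 ratio was -0.21 (-0.84 to 0.38), a range that spans 0. The site over exon 2 scored 0.2 in both libraries, the site in intron 4 went from 0.3 to 0.1, and a further transcript, over exon 3, scored 0.2 and was called only after IL-4. Covered length went from 338 bp (2.88%) to 1143 bp (9.74%), and on the measure that sums score times length the centred ratio was 1.08, so the direction for H2-Ab1 depended on the measure.

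H2-Eb1 (ENSMUSG00000060586.11, chr17:34305867-34316674, plus strand) encodes the beta chain of I-E, which C57BL/6 mice do not display because they lack a functional alpha chain for it. It scored 0.3 in the control and 0.1 after IL-4, which gave a centred log2 ratio of -1.21 (-2.43 to -0.36), from 1 transcript in each library. The control transcript, chr17:34314013-34314308, was annotated to intron 2 of 5, and the IL-4 transcript that overlapped it, chr17:34314204-34314655, to exon 3 of 6. H2-Eb1 was thus the one gene of the set at least 2-fold lower, although its IL-4 value was the lowest a transcript commonly carries and its rounding range reached inside 2-fold. Such a step was common at this level, since 10.9% of the 1325 genes with a control value of 0.3 were at least 2-fold lower. The IL-4 segment was longer than the control segment, and the covered length of the gene went from 296 bp (2.74%) to 731 bp (6.76%), which includes 1 transcript of score 0.1 named for H2-Eb2. Reads from near-identical stretches of class II chain genes may have been placed at more than 1 of them, so values of single chains are uncertain in that respect.

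H2-DMa (ENSMUSG00000037649.10, chr17:34119541-34139101, plus strand) encodes the alpha chain of the peptide editor H2-DM. It scored 0.2 in the control and 0.3 after IL-4, which gave a centred log2 ratio of 0.96 (0.38 to 1.60), just under 2-fold. The maxima came from different places. The control value lay in intron 1 at chr17:34126020-34126178, where the IL-4 library scored 0.1, and the IL-4 value lay at the start site, chr17:34122833-34123357, where the control library had no transcript. Transcripts under its name numbered 2 and 6, of which 1 and 5 scored 0.1. Covered length went from 1567 bp (8.01%) to 5385 bp (27.5%), including transcripts within the span that are named for the neighbouring Brd2, 2 in the control with scores of 0.8 to 0.9 and 5 after IL-4 with scores of 0.1 to 1.0.

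**Figure D4:**
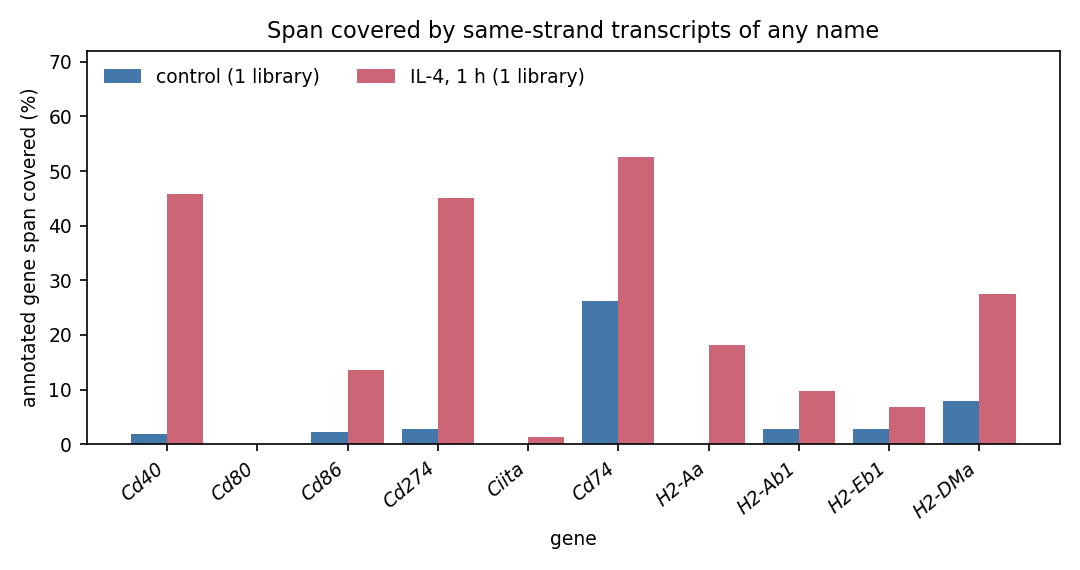
Percent of each gene's annotated span covered by called transcripts on its own strand, whatever name they bear, in the control library (blue) and the IL-4 library (red). Cd40 went from 1.97% to 45.8% and Cd274 from 2.73% to 45.0%, and Cd80 has no bar in either library.

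Promoter windows were available for 5 of the 10 genes, in 6 windows, and those of H2-Aa, H2-Eb1 and H2-DMa are shown because these class II genes differed at the start site. After IL-4, H2-Aa had a transcript just inside the gene, H2-DMa had one that began at the start site, and H2-Eb1 had none nearer than 8562 bp from the start to the transcript's centre. Class II promoters are known for a conserved module of X and Y boxes bound by RFX, CREB and NF-Y, which CIITA joins. In the H2-Aa and H2-Eb1 windows, capitals mark matches on either strand to CCAAT, the Y box core, and to TGACG, the core of the element bound by CREB. In the H2-DMa window, which holds neither, the 49 capitals are the bases inside the IL-4 transcript. The windows are RefSeq sequence of GRCm38.p6, each running from 250 bases before to 50 after the start, at chr17:34287774-34288073 (minus strand), chr17:34305617-34305916 (plus strand) and chr17:34122582-34122881 (plus strand).
H2-Aa promoter: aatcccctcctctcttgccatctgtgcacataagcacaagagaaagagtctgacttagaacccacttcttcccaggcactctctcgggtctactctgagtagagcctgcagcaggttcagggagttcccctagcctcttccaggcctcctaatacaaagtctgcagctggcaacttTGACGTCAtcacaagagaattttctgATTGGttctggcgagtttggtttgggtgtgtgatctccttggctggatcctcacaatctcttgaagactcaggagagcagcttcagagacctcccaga
H2-Eb1 promoter: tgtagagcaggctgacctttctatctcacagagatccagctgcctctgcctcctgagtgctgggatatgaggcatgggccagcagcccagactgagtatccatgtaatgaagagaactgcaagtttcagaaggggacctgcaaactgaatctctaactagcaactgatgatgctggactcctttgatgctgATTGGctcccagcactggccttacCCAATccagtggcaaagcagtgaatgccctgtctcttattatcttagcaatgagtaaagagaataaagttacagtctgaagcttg
H2-DMa promoter: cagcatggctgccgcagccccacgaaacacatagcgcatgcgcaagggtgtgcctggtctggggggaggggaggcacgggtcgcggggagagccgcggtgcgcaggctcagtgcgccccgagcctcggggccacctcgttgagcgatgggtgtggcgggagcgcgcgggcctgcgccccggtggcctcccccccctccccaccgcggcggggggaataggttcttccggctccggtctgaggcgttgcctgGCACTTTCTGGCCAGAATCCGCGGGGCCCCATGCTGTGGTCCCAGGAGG

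CCAAT was found in 3 of the 6 windows and in 37.4% of the 32851 promoters of the table. In H2-Aa the match began 48 bases before the start, and in H2-Eb1 there were matches 59 and 35 bases before it, on opposite strands. TGACG was found in 1 of the 6 windows, against 20.8% of all promoters. That window was H2-Aa, where 2 overlapping matches, 74 and 71 bases before the start, form the palindrome TGACGTCA. The H2-DMa window shown had 73% GC and 29 CpG dinucleotides, against 50.7% and 3 in H2-Aa and 48% and 0 in H2-Eb1. A second H2-DMa window, farther into the gene, held CCAAT 198 bases before its start. TTCNNNNGAA, the spacing that STAT6 favours, was in none of the 6 windows and in 6.95% of all promoters. TTCNNNGAA, the spacing favoured by other STAT proteins, and TTTCNNTTTC, a core of the interferon-stimulated element, were likewise in none of the 6, and in 8.30% and 3.44% of all promoters. These matches describe letters in a short window and say nothing on binding.

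Since the libraries were called separately, the values were also compared at matched positions. Transcripts of the members that overlapped on the same strand formed 16 pairs, of which 11 scored higher after IL-4, 1 was equal and 4 scored lower. Over all 26998 pairs, 6209 scored higher, 6184 were equal and 14605 (54.1%) scored lower. After centring on the median pair, 8 of the 16 were at least 2-fold higher and 2 at least 2-fold lower, beside 10.9% and 11.3% of all pairs. The costimulatory genes made up 10 of the pairs, of which 9 scored higher and 6 were at least 2-fold higher. The class II genes made up 6, of which the 2 of Cd74 scored higher, 1 of H2-Ab1 was equal, and 1 each of H2-Ab1, H2-Eb1 and H2-DMa scored lower. Pairs within 1 gene are not independent of each other.

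**Figure D5:**
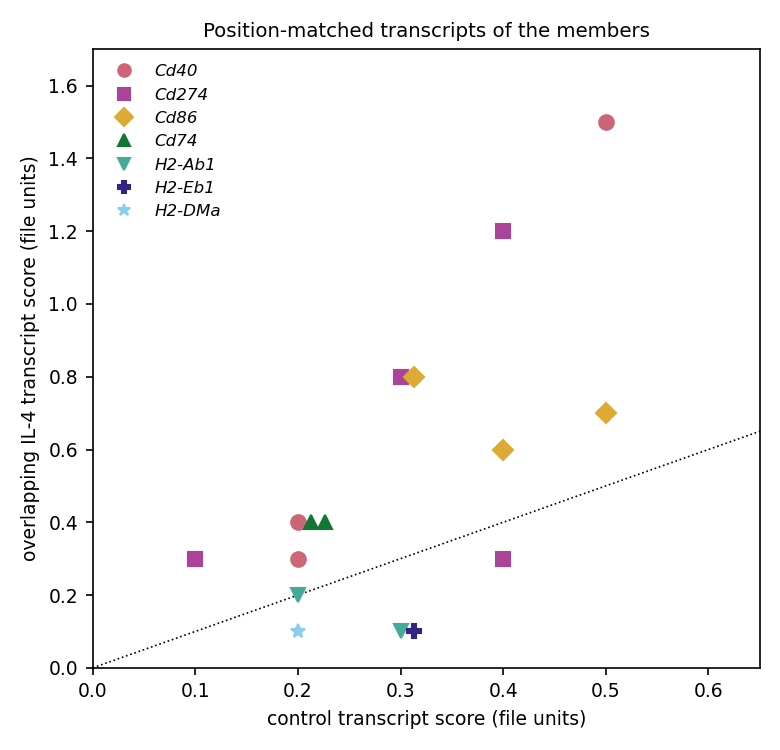
Scores of the 16 position-matched transcript pairs of the members, control on the x axis and IL-4 on the y axis, both in file units, with the dotted line at equal score, 1 symbol per gene, and coinciding points shifted slightly to the right. The Cd40 and Cd86 pairs and 3 of the 4 Cd274 pairs lie above the line, and those of H2-Eb1 and H2-DMa below it.

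The IL-4 calls were largely at places with no control call. Of the 20 control transcripts of the members, 16 (80%) had a counterpart in the IL-4 library, against 62.6% of all control transcripts. Of the 76 IL-4 transcripts, 16 (21.1%) had one in the control, against 51.9% of all. Counterparts were missing for 14 of 17 IL-4 transcripts of Cd40, 16 of 20 of Cd274 and 18 of 21 of Cd86. Most control calls on these 3 genes were thus seen again after IL-4, among many that were new.

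Other genes of these pathways were counted from fixed lists to place the members. Of 22 further costimulatory and coinhibitory genes of antigen-presenting cells, 11 had a ratio, with a median of -0.62, the opposite side of 0 from the costimulatory members. Cd83, a marker of activated presenting cells, scored 0.6 in the control and 1.1 after IL-4 (centred log2 ratio 1.25). Vsir, an inhibitory ligand of the same family as PD-L1, scored 0.8 and 0.2 (-1.62), and Tnfrsf14, the receptor HVEM, scored 1.0 and 0.3 (-1.36). These were the 3 genes past 2-fold, 1 higher and 2 lower. Pdcd1lg2, which encodes the second PD-1 ligand and lies next to Cd274, was named only after IL-4, with 6 transcripts and a highest score of 0.4. Conversely, Nectin2 of the same list was named only in the control, with 1 transcript of score 0.2.

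Among 8 genes of CD40 signalling, 7 had a ratio and 1 was at least 2-fold higher, with a median of 0.11. That gene was Traf5, an adaptor of the receptor, at 2.1 in the control and 3.5 after IL-4 (1.12). Map3k14, the kinase that opens the noncanonical NF-κB pathway, scored 2.9 and 2.4 (0.11), Birc3, a ubiquitin ligase of the receptor complex, scored 1.5 and 0.8 (-0.53), and Traf6 scored 0.7 and 0.8 (0.57). Of 5 further class II chains and editors none had a value in both libraries. H2-DMb1, the partner chain of H2-DMa, was named in the control alone, at 0.4, and H2-Eb2 after IL-4 alone, at 0.1. The transcriptional regulators and ubiquitin ligases of class II numbered 11, of which 10 had a ratio, with a median of 0.38. Rfxap, a subunit of the RFX complex, scored 0.2 and 0.6 (1.96), and March8, a ligase that removes class II from the surface, scored 0.6 and 0.2 (-1.21), while the other 8 were within 2-fold. The rounding range of March8, -1.74 to -0.76, reached inside 2-fold.

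Antigen-processing genes gave 1 of 7 past 2-fold, with a median of 0.09. Ctsd, a lysosomal protease, scored 2.8 in the control and 0.4 after IL-4 (-2.43), and Ctss, the protease that trims the invariant chain, scored 0.4 and 0.6 (0.96). Within 2-fold lay Sppl2a, the protease that clears the remnant of the invariant chain, at 3.3 and 3.8 (0.58), Lgmn at 2.8 and 2.3 (0.09) and Ctsb at 2.5 and 1.1 (-0.81). In the class I pathway 16 of 18 genes had a ratio, with a median of 0.38. At least 2-fold higher were 3 and none was lower, beside 8.06% and 8.62% of all genes. The 3 were B2m, the light chain of class I, at 0.6 and 1.0 (1.12), Psmb10, an immunoproteasome subunit, at 0.1 and 0.2 (1.38), and the chaperone Calr at 0.7 and 1.4 (1.38). Rounding ranges were 0.93 to 1.31 for B2m and 0.38 to 2.70 for Psmb10, both reaching inside 2-fold, and 1.23 to 1.54 for Calr. Most genes of both lists thus lay within 2-fold.

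Markers of macrophages and of other cell types that a marrow culture could hold were set beside these values. All 8 macrophage markers had a value in both libraries, none was past 2-fold, and their scores summed to 20.7 in each. The sums given here were not centred and are weighted toward the highest-scoring genes. Of 7 dendritic cell markers 3 had values, and Flt3, Zbtb46, Ccr7 and Xcr1 were named in neither library. Their scores summed to 20.9 and 27.8, of which Cd209a made up 18.9 and 25.5 from intergenic transcripts annotated to a ribosomal RNA repeat. Itgax, shared with macrophages, scored 0.3 and 0.5 (1.12), with none of its own strand covered in either library. Batf3 scored 1.7 and 1.8 (0.46), again from an intergenic ribosomal RNA repeat, but its transcripts went from 3 to 22 and its covered length on the own strand from 0 to 4966 bp, a gain in coverage beside those of Cd40 and Cd274 whose part in them was not tested. None of the listed B cell and T cell markers had any of its own strand covered in either library, including those with a value. Of the B cell markers, Cd79a had a value of 0.4 in each library, and Ms4a1 and Pax5 had none. T cell marker scores summed to 1.0 and 0.8 with 2 and 1 of 6 genes named, granulocyte marker scores to 1.1 and 0.5 with 2 of 6 named in each library, and none of the 5 fibroblast markers was named.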

How the data were processed

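The data were 2 GRO-seq libraries of BMDMs, 1 per condition, grouped by the treatment label. The members and gene lists were chosen with earlier results of these data known. Per the submitters' processing notes, BWA 0.7.10, SAMtools 0.1.19 and HOMER 4.2 were used with mm10. The authors aligned reads with BWA at default settings, removed ENCODE artifact regions, and annotated transcripts called in each library separately. Per the file headers the deposited value is a peak score, printed to 1 decimal, and its scaling to library size is not given in the sources used here. No read counts were analysed, so depth is unknown and no counting interval is given.

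All named genes were processed together with Python 3.11.15, pandas 2.3.3 and numpy 2.4.6. No filter and no pseudocount were applied. Log2 ratios were centred on the median gene and called at 2-fold, with rounding ranges from 0.05 either side of each score. Covered length used transcripts of any name on the gene's strand within its GENCODE M21 span, and was called at 4-fold. Pairs overlapped by at least 1 bp on the same strand. Distances were measured from the start site implied by the files to the transcript's centre. The text names all 10 members and, from each list, genes at least 2-fold apart, or up to 4 with the highest control value where fewer than 2 were. Ctss, Pdcd1lg2, Nectin2, H2-DMb1 and H2-Eb2 were named after their values were seen, as were single markers. 1 listed marker is not reported here. List symbols were matched to older names through RefSeq. Scripts were tested on simulated data. With 1 library per condition no test was run. Alternatives covered the gene value, repeats, centring, absent genes, filters and overlap.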

Additional observations from a re-analysis of the deposited data

How the results depend on the processing

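No paired analysis was possible because each condition had 1 library. Cd40 was at least 2-fold higher in 9 of 9 alternatives (1.58 to 4.67), Cd274 in 8 of 9, Cd74 in 8 of 9 (0.04 to 1.42) and Cd86 in 6 of 9 (0 to 1.79), and H2-Eb1 was at least 2-fold lower in 8 of 8 that gave a value (-1.58 to -1.13). For H2-Eb1 these alternatives rested on the same scores, 0.3 and 0.1, from 1 transcript of its name per library. Most alternatives for Cd40, Cd274, Cd74 and Cd86 likewise reused the scores of the main setting. These were 0.5 and 1.5 for Cd40, 0.4 and 1.2 for Cd274, 0.2 and 0.4 for Cd74, and 0.5 and 0.8 for Cd86. The counts of alternatives that gave the same call are therefore not separate checks for any of these genes. H2-DMa ranged from 0.51 to 2.76 and H2-Ab1 from -0.58 to 1.08. Cd274 changed direction, to -0.42, when the transcript nearest the start site was used, since the IL-4 transcript at the start site scored 0.3 and the nearest control transcripts on either strand 0.4. That setting gave 2 members higher, a member median of 0 and 2461 genes lower. The sum of scores gave a member median of 1.69 and 1208 genes higher and 1219 lower, and score times length gave 1.79, 1529 and 1500. Same-strand overlap gave a member median of 0.51, with Cd74 at 0.04. Without centring the member median was 0.68 and 2161 genes were lower, so that 5.98% of genes were higher and 24.3% lower. Setting absent genes to 0.1 gave 1451 genes higher and 1357 lower. A minimum of 0.2 in both libraries, chosen after seeing the data, left 0 members lower, since H2-Eb1 dropped out. With an overlap of 50% of the transcript, 9 of the 76 IL-4 transcripts of the members had a counterpart, against 35.8% of all. The cause of the other shifts was not tested. Most scores of the members were near the smallest printed step, so rounding limits their ratios, and depth could not be assessed.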
